A study of Caenorhabditis elegans with 2 samples.

Results

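The splicing factor genes described here are the 46 protein-coding genes of Caenorhabditis elegans whose names start with snr-, lsm-, prp-, rsp-, mog-, uaf- or sftb-. They were taken by name from the Ensembl release 115 annotation, out of 19973 nuclear protein-coding genes, by a rule on names that uses no measured value, though the families were picked with earlier results of these data known. The 7 name families hold 7 snr, 7 lsm, 13 prp, 8 rsp, 6 mog, 2 uaf and 3 sftb genes. For each gene, the value taken was the highest signal among the regions whose summit lay within 1000 bp of one of its annotated transcription start sites.

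The signal comes from chromatin immunoprecipitation with sequencing (ChIP-seq) of ETS-5, an ETS-domain transcription factor, in whole first-stage (L1) larvae, with an antibody against GFP. Worms of strain OP809 carried the integrated transgene wgIs809, in which ets-5 from a fosmid is fused to TY1, EGFP and 3xFLAG tags and which also holds a wild-type unc-119 copy, over the unc-119 allele tm4063. All larvae had this genotype, were starved after bleaching and were collected at 6 hours. There was 1 group with 2 biological replicates, no untagged or input control was analysed here, and the chromatin pools every cell type of the larva, so no value can be assigned to the cells that express ets-5.

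Splicing removes introns from pre-mRNA and is carried out by the spliceosome, a set of small nuclear ribonucleoproteins (snRNPs) that assemble anew on each intron. Sm proteins form a ring on the U1, U2, U4 and U5 RNAs and like-Sm (Lsm) proteins form a similar ring on U6 RNA. Further proteins recognise the splice sites and branch site, and RNA helicases remodel the complex between its steps. SR proteins, rich in arginine and serine, bind exons and help define them. In the nematode much of the same machinery also joins spliced leader RNAs to the starts of many messages. The mog genes are known for mutants whose hermaphrodites keep making sperm instead of oocytes.

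Of the 6 genes of highest signal in the series list, the sequence of lsm-6 is not shown. The sequences around the summits of the other 5 are shown, and their regions are described below. Each runs 100 bp to either side of the summit on the plus strand of WBcel235, the assembly that ce11 names, read from RefSeq's genome sequence. The region of prp-19 has capitals at CCGGAA, the core word of ETS sites, and the other 4 have capitals at its shorter form GGAA or the reverse complement TTCC. They lie at chrII:14561747-14561947 (mog-4), chrIV:17088579-17088779 (snr-1), chrIII:5172451-5172651 (prp-19), chrIII:12687455-12687655 (rsp-3) and chrII:10658426-10658626 (rsp-7).
mog-4: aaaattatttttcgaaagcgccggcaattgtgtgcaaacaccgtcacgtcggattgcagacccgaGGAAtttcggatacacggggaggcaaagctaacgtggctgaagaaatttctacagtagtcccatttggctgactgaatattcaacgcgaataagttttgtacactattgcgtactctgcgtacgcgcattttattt
snr-1: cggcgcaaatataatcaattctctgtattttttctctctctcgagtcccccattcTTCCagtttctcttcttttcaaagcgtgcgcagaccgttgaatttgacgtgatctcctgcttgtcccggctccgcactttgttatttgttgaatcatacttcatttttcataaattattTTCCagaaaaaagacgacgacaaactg
prp-19: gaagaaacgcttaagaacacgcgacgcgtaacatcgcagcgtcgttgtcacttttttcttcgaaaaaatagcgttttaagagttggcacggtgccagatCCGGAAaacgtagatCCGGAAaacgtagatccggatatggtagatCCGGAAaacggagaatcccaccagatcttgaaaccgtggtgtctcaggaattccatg
rsp-3: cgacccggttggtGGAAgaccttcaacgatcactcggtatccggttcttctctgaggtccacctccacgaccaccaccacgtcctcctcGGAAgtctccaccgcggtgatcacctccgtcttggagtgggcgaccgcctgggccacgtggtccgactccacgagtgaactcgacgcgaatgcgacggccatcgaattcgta
rsp-7: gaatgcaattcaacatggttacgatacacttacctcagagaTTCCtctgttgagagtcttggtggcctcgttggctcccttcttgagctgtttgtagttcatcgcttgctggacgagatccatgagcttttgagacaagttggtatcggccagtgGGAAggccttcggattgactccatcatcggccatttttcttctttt

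The mog-4 sequence, the only one of the 5 that belongs to a region passing the authors' threshold, held no CCGGAA and a single GGAA. The prp-19 sequence held CCGGAA 3 times, starting 1 bp before and 14 and 44 bp after the summit, within a short repeat in which GATCCGGA occurs 4 times on the plus strand. The word CCGGAA was searched on both strands and contains GGAA. Of the strongest regions of all protein-coding genes, 9.26% held CCGGAA within 100 bp of the summit, 0.665% held it 3 times or more, and 88.3% held GGAA. The strongest regions of the splicing factor genes held CCGGAA in 5 of 45 cases (11.1%), at prp-19, snr-7, uaf-2, mog-2 and, with 2 copies, lsm-5. These counts describe the letters in the window and not binding.

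The mog-4 gene was the 1 splicing factor gene of 46 with a region in the authors' main list, whose 250 regions have an irreproducible discovery rate (IDR) of at most 0.01. The IDR is low where a region stands equally high in both of the lists being compared. Which lists were compared is not known here, and the list of each single replicate carries an IDR too. A low IDR is thus not read as agreement between the 2 replicates. Over all protein-coding genes, 0.741% had such a region. MOG-4 is a DEAH-box RNA helicase, the counterpart of yeast Prp2, which activates the spliceosome before its first catalytic step. The region lay at II:14561692-14562001, with its summit 248 bp upstream of the nearest mog-4 start site, and part of an annotated pseudogene lay within 500 bp of it. No other protein-coding gene had a start site within 1000 bp of the summit.

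The signal of the mog-4 region was 124 in the series list, 49.4 in replicate 1 and 77 in replicate 2. This signal is the authors' value for a region on a scale that is not stated, so it orders regions within a list and is not compared between lists. By signal the region was number 21 in the main list. In replicate 2 it ranked 22 of 92443 regions with an IDR of 0.00349, and in replicate 1 it ranked 183 of 108309 with an IDR of 0.0507. It thus passed in the own list of replicate 2 and not in that of replicate 1. Among all protein-coding genes, 0.0901% had a region in the own list of replicate 2 and 0.0601% in that of replicate 1, where no splicing factor gene did. The shorter list that the authors call conservative also held mog-4 and no other of the 46 genes, against 0.506% of all genes. No explanation for the difference between the replicates was tested.

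Most splicing factor genes stood above the middle of all protein-coding genes, below the threshold. To compare lists, each gene's signal was turned into a percentile, the share of the 19973 genes with a lower value, with ties shared equally and genes with no region placed lowest. The median percentile of the 46 genes was 79.0 in the series list, 74.7 in replicate 1 and 65.8 in replicate 2, where the median over all genes is 50 by definition. The series list was made from the reads of both replicates and is not independent of them. The upper 10% of all genes held 13 of the 46 genes in the series list (28.3%), 12 in replicate 1 (26.1%) and 8 in replicate 2 (17.4%). In both replicates at once, 4 of 46 genes (8.70%) were in the upper 10%, namely mog-4, snr-1, prp-19 and rsp-7, against 2.71% of all genes. Of these, mog-4 and prp-19 had their strongest region at the same place in both replicates, and snr-1 and rsp-7 did not. Above the middle in both replicates were 29 of 46 (63.0%), against 30.9% of all genes, and below it in both were lsm-7, lsm-8, prp-17 and mog-5, against 30.9%. No test was made of these shares.

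**Figure D1:**
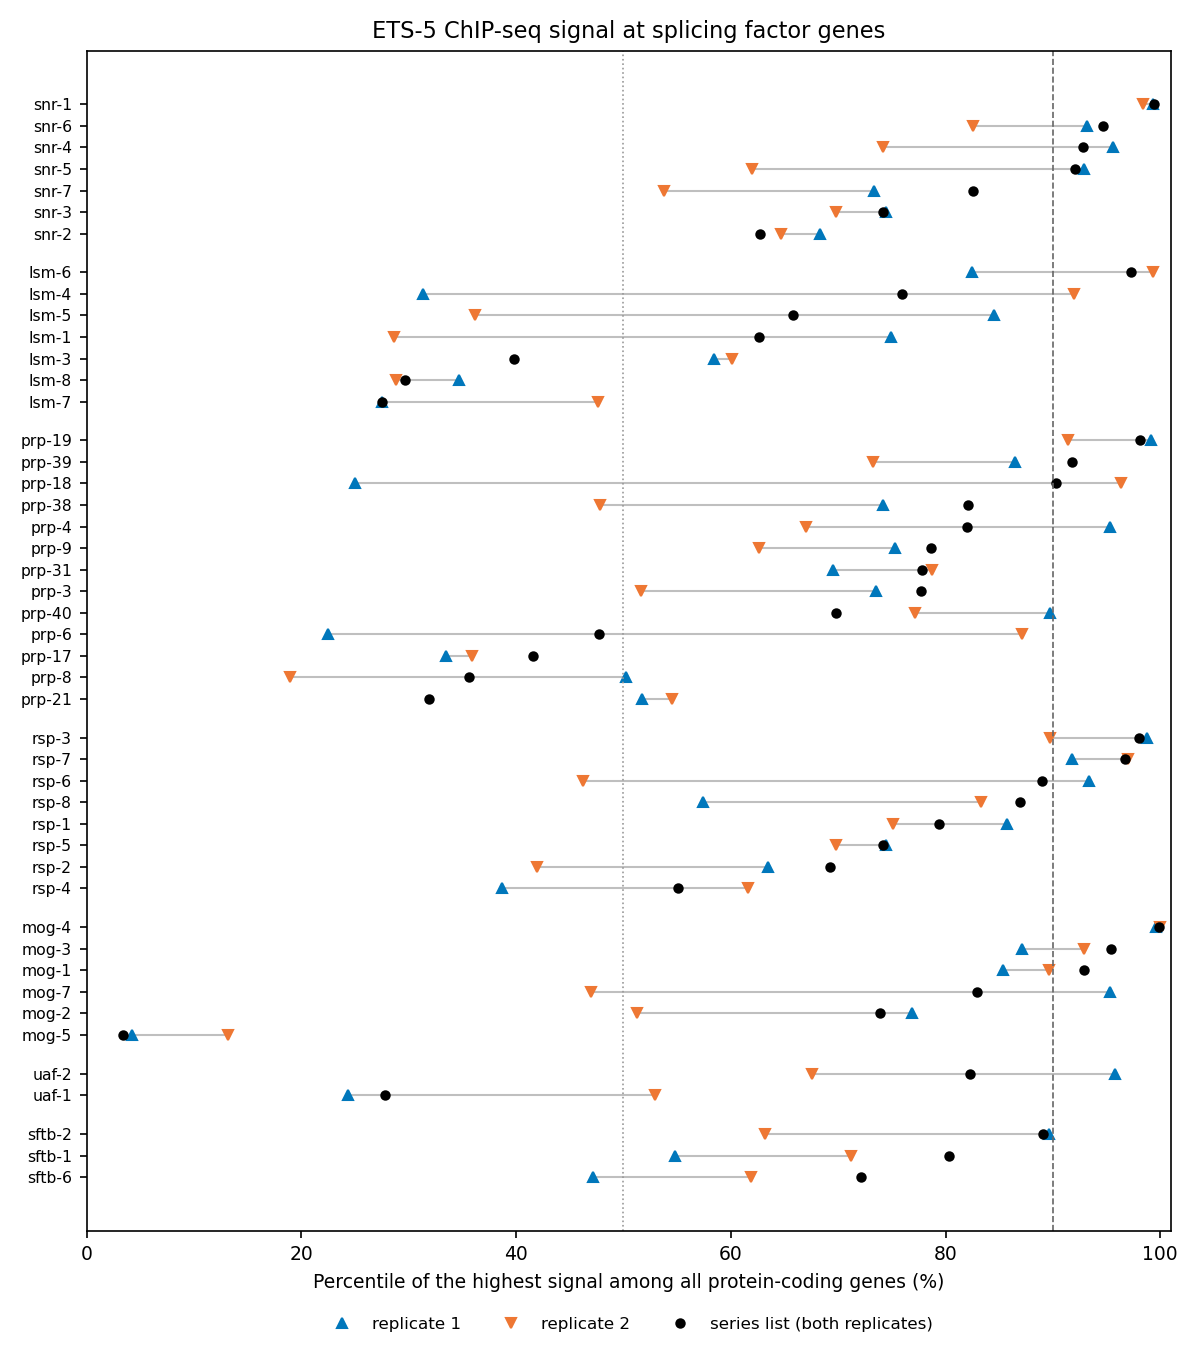
Percentile of the highest signal of each of the 46 splicing factor genes among all protein-coding genes (horizontal axis, in percent), grouped by name family. Circles are the series list and triangles the replicates, joined by a line, with dashes at 90 and dots at 50. Only mog-4, snr-1, prp-19 and rsp-7 have both triangles to the right of the dashed line, while prp-18, prp-6 and lsm-4 span most of the axis.

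The median depended on how close to the start site a region had to be. With a window of 500 bp in place of 1000 bp it fell to 59.5, and 12 of 46 genes were in the upper 10%. Of these, 9 were in the upper 10% with both windows. The genes prp-18, rsp-7, snr-4 and snr-5 left it, and rsp-6, rsp-8 and sftb-2 entered it. The strongest regions of the splicing factor genes lay at a median distance of 591 bp from the start site, against 471 bp over all genes. Within 500 bp lay 18 of 45, against 53.0% of all genes' strongest regions. A further value that moved with the percentile was gene density. Of the 46 genes, 40 (87.0%) had another protein-coding gene's start site within 2000 bp, against 50.6% of all genes, and all genes with such a neighbour had a median percentile of 52.1 against 48.0 for those without. Among the splicing factor genes, the median was 79.8 for the 40 with such a neighbour and 62.7 for the 6 without. The median of all 46 was 78.4 when percentiles were taken separately in those 2 classes of genes. It was 77.1 when they were taken within each chromosome. None of the 46 genes lies on the X chromosome, which holds 13.7% of all genes.

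The Sm protein genes had the highest median of the 7 families in the series list and in replicate 1, but not in replicate 2, and that place rested on regions more than 500 bp from a start site. The median percentile of the 7 snr genes was 92.1 in the series list, 92.9 in replicate 1 and 69.8 in replicate 2, and all 7 were above 50 in both replicates. With a window of 500 bp the series median of the snr genes was 55.7, and snr-4 had no region. All other families except lsm (51.9) were then higher, at 86.5 (rsp), 67.3 (mog), 67.1 (sftb), 66.2 (uaf) and 57.8 (prp). The gene snr-1, for Sm D3, was second to mog-4 among the 46 in the series list and in replicate 1, and came after mog-4 and lsm-6 in replicate 2. It had a signal of 81.4 in the series list, 46.2 in replicate 1 and 38.8 in replicate 2. Its percentiles were 99.4, 99.3 and 98.4 in that order. Its strongest region (IV:17088524-17088833) had an IDR of 0.0169, just outside the threshold of 0.01.

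The snr-1 signal was spread over several regions and did not sit at 1 place in both replicates. In the series list, regions of 81.4, 78.3 and 57.8 had their summits 630 bp downstream, 4 bp upstream and 446 bp upstream of the start site. The strongest region of replicate 1 lay 19 bp downstream and that of replicate 2 lay 445 bp upstream. The summit at 630 bp was closer to the start site of the next gene, Y116A8C.43, at 172 bp.

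Of the other snr genes, snr-6 (Sm E), snr-4 (Sm D2) and snr-5 (Sm F) were in the upper 10% of the series list. The signal of snr-6 was 60.8 in the series list, 34.6 in replicate 1 and 26.3 in replicate 2, and its region lay 147 to 149 bp downstream of the start site in all 3 lists. The signal of snr-4 was 58.0, 36.9 and 23.7 in the same order, at a region 591 bp upstream with the small nuclear RNA gene T11F9.15 within 500 bp of the summit. The snr-5 signal was 57.0, 34.4 and 21.0, and its strongest region changed place, from 874 bp downstream in replicate 1 to 683 bp upstream in replicate 2. All 3 genes were in the upper 10% in replicate 1 and below it in replicate 2. Lower values were found for snr-7 (Sm G, 49.3 in the series list), snr-3 (Sm D1, 44.9) and snr-2 (Sm B, 40.3).

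The Lsm genes had lower values. Their median percentile was 62.6 in the series list, 58.4 in replicate 1 and 47.6 in replicate 2. The highest in the series list and in replicate 2 was lsm-6, a subunit shared by the nuclear U6 ring and the cytoplasmic decapping ring, with a signal of 66.5 in the series list, 29.1 in replicate 1 and 43.2 in replicate 2. Its region (IDR 0.0276) lay 307 bp upstream of the start site, and the strongest region of replicate 1 lay elsewhere, at 894 bp upstream. The gene lsm-8, whose product is particular to the nuclear ring, had 28.7, 17.7 and 13.9, and lsm-7, lowest of the family in the series list and in replicate 1, had 27.9, 15.9 and 17.9. In replicate 2 the lowest was lsm-1. The gene lsm-1, whose product marks the decapping ring, had 40.3, 26.8 and 13.8. The percentiles of lsm-4 were 31.3 in replicate 1 and 92.0 in replicate 2, while those of lsm-5 were 84.5 and 36.2, in the opposite order.

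Among the prp genes, several of which encode snRNP factors, prp-19 was highest in the series list and in replicate 1, and prp-18 in replicate 2. PRP-19 is the ubiquitin ligase after which the Prp19 complex is named, a complex needed to activate the spliceosome. Its signal was 69.5 in the series list, 45.1 in replicate 1 and 30.3 in replicate 2, with percentiles of 98.1, 99.1 and 91.4. The region (III:5172396-5172705, IDR 0.0390), the one with the repeated CCGGAA shown above, had its summit 506 bp upstream of prp-19 and 169 bp from the start site of K10D2.5 on the other strand. It was found at the same place in both replicates, with summits at 581 and 487 bp upstream.

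The next prp genes in the series list were prp-39, a U1 snRNP factor in yeast (56.6 in the series list, 30.8 in replicate 1 and 23.5 in replicate 2), and prp-18, a factor of the second catalytic step (55.2, 15.1 and 34.4). For prp-18 the replicates were far apart, at percentiles of 25 and 96.3, although both had a summit at the same place, 980 to 982 bp upstream of its start site. That summit lay in a coding exon, with the start site of mccc-1 nearer, at 793 bp. Genes of the U4/U6 and U5 particles spread widely, from prp-4 (48.9), prp-31 (46.6) and prp-3 (46.6) to prp-6 (35.1) and prp-8 (31.1), the largest protein of the U5 particle. Lowest of the family in the series list was prp-21, a subunit of the SF3a complex, with 29.6, 21.3 and 19.3, while prp-6 was lowest in replicate 1 (14.3) and prp-8 in replicate 2 (10.7). The gene prp-38 had 48.9, 26.6 and 18. The median percentile of the 13 prp genes was 77.8 in the series list, 73.5 in replicate 1 and 67.0 in replicate 2.

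The SR protein genes of highest signal in the series list were rsp-3, whose product corresponds to human SRSF1, and rsp-7. The signal of rsp-3 was 69.4 in the series list, 43.8 in replicate 1 and 29.4 in replicate 2, with percentiles of 98.0, 98.8 and 89.7. Its region (III:12687400-12687709) had the IDR nearest to the threshold of all genes of the group that did not pass, 0.0137. The summit lay inside the gene, 361 to 379 bp downstream of a start site in all 3 lists, in sequence with a GC content of 61.7%.

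The signal of rsp-7 was 65.1 in the series list, 33.6 in replicate 1 and 35.4 in replicate 2. The series region (II:10658371-10658680, IDR 0.0222) lay 680 bp upstream of rsp-7 and only 100 bp from the start site of snu-13, which encodes a protein of the U4/U6.U5 particle. Replicate 1 had its strongest region at nearly the same place, 740 bp upstream, and replicate 2 had it 520 bp downstream of the rsp-7 start site, where the series list held a region of 60.7. The other rsp genes ranged from 37.6 for rsp-4, the counterpart of human SRSF2, to 53.9 for rsp-6. Of these, rsp-6 had percentiles of 93.4 in replicate 1 and 46.2 in replicate 2. The gene rsp-8 had 52.3 in the series list, 22.5 in replicate 1 and 26.5 in replicate 2. The family median was at the percentile 83.1 in the series list, 80.1 in replicate 1 and 72.5 in replicate 2.

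**Figure D2:**
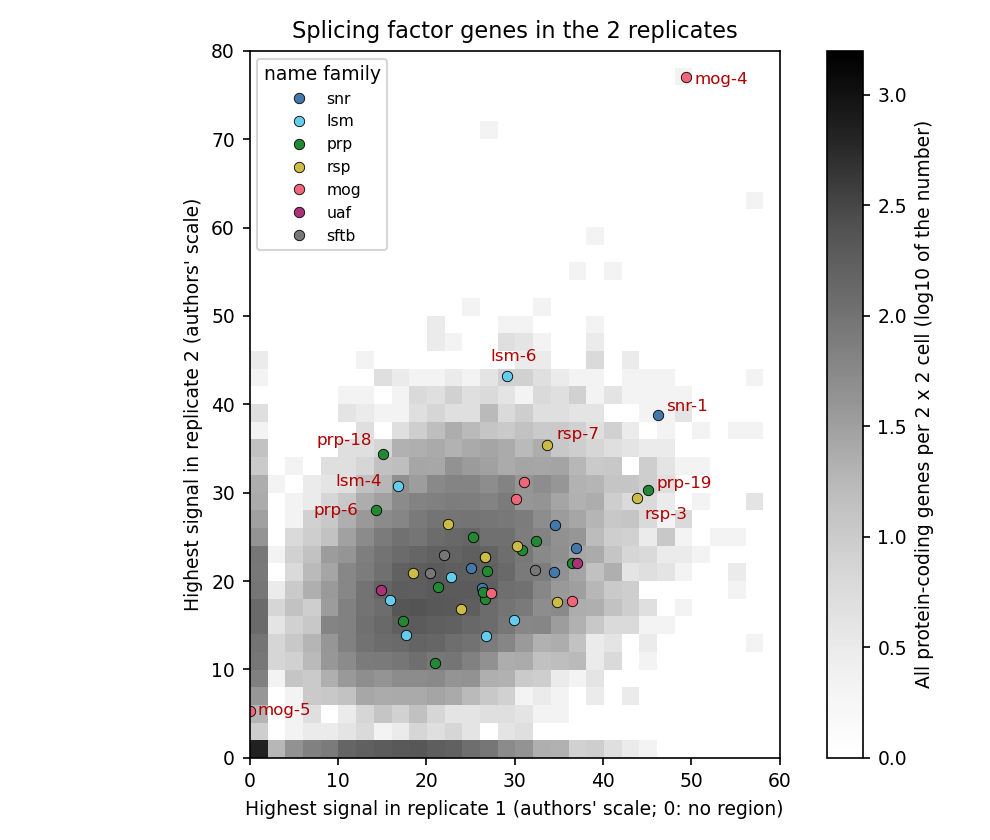
Highest signal of each splicing factor gene in replicate 1 (horizontal axis) and replicate 2 (vertical axis), on the authors' scale of each list, with name families in colour and all protein-coding genes as grey cells shaded by the log10 of their number. The mog-4 point, at 49.4 and 77, stands apart from the other 45, and mog-5 has no region in replicate 1 and is drawn at 0 there.

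The mog family held both the highest and the lowest of the 46 genes. After mog-4 in the series list came mog-3, a homologue of the splicing factor CWC25, with 62.1 in the series list, 31.1 in replicate 1 and 31.2 in replicate 2. The gene mog-1, for the counterpart of the yeast helicase Prp16, had 58.1, 30.2 and 29.3. Both had their strongest region within the gene, at the same place in both replicates: 451 to 492 bp (mog-3) and 288 to 303 bp (mog-1) downstream of the start site. They were in the upper 10% of the series list, with percentiles of 95.4 and 92.9. In replicates 1 and 2 the percentiles were 87.1 and 92.9 for mog-3, and 85.4 and 89.6 for mog-1. The gene mog-1 was thus below the upper 10% in both replicates, and mog-3 in replicate 1.

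The gene mog-7 had 49.4, 36.5 and 17.8, and mog-2, for the U2 snRNP protein A′, had 44.8, 27.3 and 18.7. The helicase gene mog-5, the counterpart of yeast Prp22, was the only one of the 46 with no region within 1000 bp of its start site in the series list, where 93.3% of all genes had one. The nearest summit was 1105 bp away, with a signal of 26.5. It also had none in replicate 1, where 91.6% of all genes had one, and a region of 5.30 at 690 bp in replicate 2, where 87.4% did. The 3 DEAH-box helicase genes of the family thus stood at 124, 58.1 and no region in the series list.

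The genes for the subunits of U2AF, which recognises the end of the intron, differed from each other. The gene uaf-2, for the small subunit, had 49 in the series list, 37.1 in replicate 1 and 22.1 in replicate 2, and uaf-1, for the large subunit, had 28.0, 14.9 and 19. The genes of SF3b, which binds the branch site, ranged less in the series list, with 54.0, 32.3 and 21.2 for sftb-2, 48.0, 22 and 23 for sftb-1, and 44.1, 20.4 and 20.9 for sftb-6. The summit counted for sftb-6 lay 649 bp upstream of it and 2 bp from the start site of luc-7L3. With 2 replicates whose values for 1 gene differed this much, the order of neighbouring genes within a family is not fixed by these data.

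**Figure D3:**
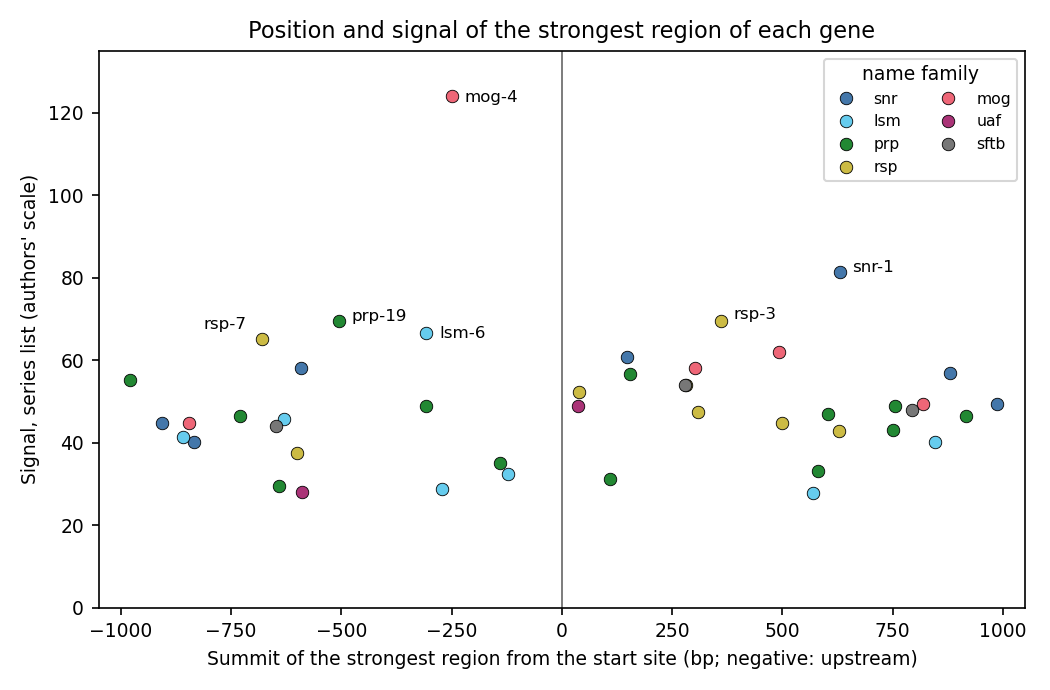
Signal of the strongest region of each splicing factor gene in the series list (vertical axis, authors' scale) against the distance of its summit from the nearest start site of the gene (horizontal axis, bp, negative upstream), for the 45 genes that have one. Summits lie on both sides of the start site, 20 upstream and 25 downstream, and the mog-4 region stands alone at 124.

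The strongest regions had few features in common. They were 44 distinct regions, since the head-to-head pair snr-3 and rsp-5 share 1 region (signal 44.9). Another protein-coding gene had a start site within 1000 bp of the summit in 24 of 45 cases (53.3%), against 25.6% over all genes. The gene itself had the nearest start site in 31 of 45 (68.9%), against 87.2%. Counted by gene, 30 of the 45 summits lay within 500 bp of some protein-coding start site, 11 in coding exons beyond that, 2 in introns and 2 between genes. Their mean GC content within 100 bp, also by gene, was 42.8% ± 6.53 (SD, 45 genes), against 39.5% ± 6.95 (SD, 18633 genes). It was highest in the rsp family, at 49.8% ± 8.40 (SD, 8 genes).

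The strongest regions of the replicates overlapped each other for 23 of 45 genes (51.1%), against 45.1% of all genes with a region in both. The strongest region of the series list overlapped that of replicate 1 for 37 of 45 genes (82.2%, against 70.3% of all genes) and that of replicate 2 for 28 of 45 (62.2%, against 65.4%). Spearman's rho between the replicates' signals was 0.341 over the 45 genes with a value in both and 0.279 over the 16465 such genes in all. These are descriptions across genes that share libraries and a peak caller. The percentiles of the replicates differed by more than 40 points for 7 of 46 genes (15.2%), against 23.3% of all genes. These were prp-18, prp-6, lsm-4, lsm-5, lsm-1, rsp-6 and mog-7. A global IDR under 0.05 in the series list was reached by the strongest regions of 8 of 46 genes (17.4%), namely mog-4, rsp-3, snr-1, rsp-7, mog-3, lsm-6, snr-6 and prp-19, against 4.96% of all genes.

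Other genes of the splicing pathway, from a list written from general knowledge, had a lower median than the 46 genes in all 3 lists, by less than 1 percentile point in replicate 2. Of 67 names, 63 were found in the annotation. None of the 63 had a region in the 4 lists that pass the threshold, where the shares over all genes (0.741%, 0.506%, 0.0601% and 0.0901%) correspond to fewer than 1 gene of 63. Their median percentile was 60.9 in the series list, 60.4 in replicate 1 and 65.1 in replicate 2, and 10 of 63 (15.9%) were in the upper 10% of the series list, against 28.3% of the 46 genes. In replicate 1 these shares were 19% (12 of 63) and 26.1%. The order was the other way in replicate 2, at 19% (12 of 63) and 17.4%, and in both replicates at once, at 9.52% (6 of 63) and 8.70%. The highest in the series list were teg-1 (signal 72.5 in the series list, 39.7 in replicate 1 and 29.8 in replicate 2), asd-2 (65.5, 31.2 and 33.4), a regulator of alternative splicing, hrpa-1 (63.3, 36.2 and 30.9), an hnRNP gene, teg-4 (63.0, 31.9 and 30.1), an SF3b subunit gene, and etr-1 (62.6, 33.2 and 36.3), a CELF family gene. The summit counted for teg-1 (IDR 0.269) lay 480 bp from its start site and 181 bp from that of mcm-10. The windows of asd-2 and etr-1 were longer, at 7075 and 7377 bp, since they have several start sites. The median over all genes was 2001 bp. That of teg-1 was 3177 bp, and among the 46 genes the longest, at 4002 bp, were those of mog-4, mog-7, rsp-8 and uaf-1. Spearman's rho between window length and percentile in the series list was 0.203 over all 19973 genes.

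Set beside other groups taken by name, the splicing factor genes lay below the cytosolic ribosomal protein genes in all 3 lists. The 78 ribosomal protein genes had a median percentile of 85.0 in the series list, 80.2 in replicate 1 and 88.5 in replicate 2. The 33 proteasome subunit genes had 71.0, 64.3 and 65.0, and the 193 str chemoreceptor genes had 28.3, 34.5 and 28.9. The differences between these groups were not tested.

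**Figure D4:**
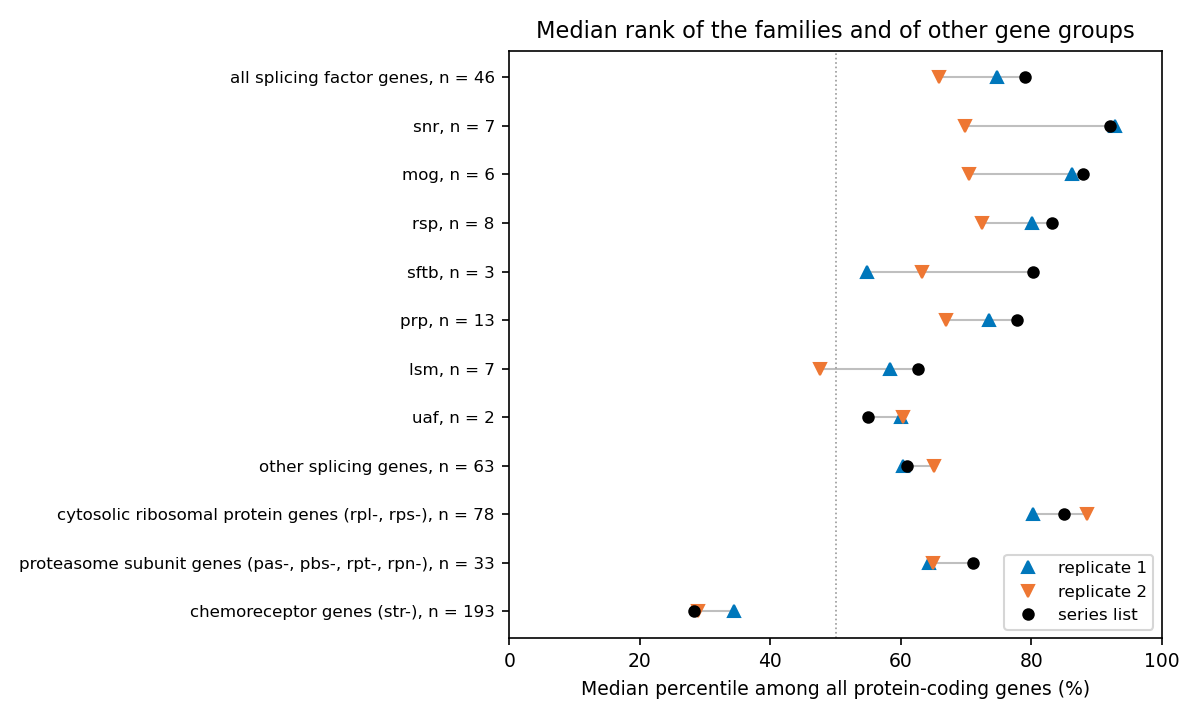
Median percentile of the highest signal among all protein-coding genes (horizontal axis, in percent) for the 46 splicing factor genes, their 7 name families, the other splicing genes and 3 other groups taken by name. Circles are the series list and triangles the replicates. The snr family has the highest circle at 92.1, while its triangles lie at 92.9 and 69.8.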

How the data were processed

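The ChIP-seq data are lists of regions of 1 group with 2 biological replicates, per the labels, on genome build ce11. Aligner and peak caller were not given in the sources used here. Each region's deposited signal is the authors' value on an unstated scale. The deposited score, capped at 1000, was checked to equal −log2 of each region's global IDR multiplied by 125, and a deposited −log10 column holds that IDR. The lowest score of the main list, 830, is an IDR of 0.01. Reads were not used, the depth is unknown, and counting intervals are left out.

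Regions were joined to the start sites of all transcripts of protein-coding genes in Ensembl release 115, leaving out 12 mitochondrial genes, in Python 3.11.15 with pandas 2.3.3, numpy 2.4.6 and scipy 1.17.1. The join was tested on simulated data. Without a second group, results are counts, ranks and medians beside those of all genes, with no test. All 46 genes are reported; those described in most detail had a passing region, the 20 highest signals, the 5 highest of a replicate, an extreme of their family or no region. Further genes were named for a role, a replicate difference or a shared region after their values were seen. The genes and lists were chosen with earlier results of these data known. Alternatives were other windows, start sites and lists, and each replicate alone.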

Additional observations from a re-analysis of the deposited data

How the results depend on the processing

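No paired analysis was possible because there is 1 group. The count of splicing factor genes with a passing region was 1 under every window, placement and series list tried, and between 0 and 1 with either replicate left out (0 in the own list of replicate 1). The count with a ranked region ran from 39 (window of 500 bp) to 46. The count in the upper 10% ran from 11 to 15 over windows, placements and series lists, and from 8 (replicate 2 alone) to 12 (replicate 1 alone). The median percentile of 79.0 moved to 59.5 with a window of 500 bp and to 68.9 with 2000 bp, and lay between 65.8 and 74.7 with 1 replicate left out, where the SD over the replicates was 6.29. Percentiles within chromosomes, or within genes with and without a near neighbour, were chosen after seeing the data and gave 12 genes in the upper 10% each. With the search narrowed to 50 bp, CCGGAA was found at the strongest region of 1 of 45 genes (2.22%, against 5.15% over all genes). With whole regions it was found for 5 of 45 (11.1% against 12.7%). With a window of 500 bp, the series signal of 11 named genes moved by more than the SD of their 2 replicate signals. That of 14 did not, while rsp-7 and snr-4 had no region there. With 2000 bp these counts were 5 and 22. The SD joins signals of the replicates' lists and the change is in the series list, all on an unstated scale. The counts are therefore only a rough guide. The wide window raised rsp-4 to 77. Family medians by window were added after seeing the data. With 500 bp the snr genes moved to 55.7 and the prp genes to 57.8, while the rsp genes were at 86.5 with both other windows. Another window changes the regions within reach of every gene, so all percentiles were taken anew. The cause of these moves was not tested. Depth is unknown, so a low or missing region cannot be told apart from shallow sequencing.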
